A study of Mus musculus with 9 samples.

Results

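The segment described here is the 1.5 Mb of mouse chromosome 6 between 47 and 48.5 Mb (build mm10). It holds the end of Cntnap2, the genes Cul1, Ezh2 and Pdia4, a group of zinc finger genes and a group of predicted genes that carry names from Gm40363 to Gm40369. Its members were all peaks of 6 deposited H3R2me2a peak lists with a start inside these bounds, 1125 of 1548240 peaks. The 10 Mb on each side held 12321 peaks and served as flanks. The segment was chosen by the crowding of peaks in these same lists, so its peak numbers and summit heights are given as a description, without a test.

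The series compared H3R2me2a, histone H3 with arginine 2 dimethylated asymmetrically, by chromatin immunoprecipitation with sequencing in mouse bone marrow cells, which its design text calls leukemia cells. The genotypes were Igf2bp2KO (without Igf2bp2), Prmt6KO (without Prmt6) and WT, with 2 H3R2me2a libraries each, and 3 input libraries, 1 per genotype, were not analysed here. All cells were grown with m-IL3, m-IL6 and m-SCF, and their chromatin was crosslinked with formaldehyde, sonicated and, after precipitation, amplified in 20 PCR cycles. The sources used here do not give the extent of the deletions, the animals or the origin of the leukemia, and nothing says that replicates came from separate animals or cultures, so the spread between replicates may be technical.

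PRMT6 is the main enzyme that writes H3R2me2a, a mark known to counteract methylation of lysine 4 on the same histone tail by MLL complexes. IGF2BP2 is an RNA-binding protein that reads m6A-modified RNA. Among the genes of the segment, Ezh2 encodes the catalytic subunit of polycomb repressive complex 2, which methylates lysine 27 of histone H3, and Cul1 encodes the scaffold of SCF ubiquitin ligases. Pdia4 encodes a protein disulfide isomerase of the endoplasmic reticulum, Cntnap2 a contactin-associated protein of neurons, and the zinc finger genes encode DNA-binding proteins, many of them with a KRAB repressor domain. Rn4.5s is a small rodent RNA whose gene lies in a tandem repeat.

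The sequences at the annotated gene starts show why the predicted genes of the segment have to be read together. RefSeq windows of GRCm38.p6, which is the build mm10, from 250 bases before to 50 bases after a start, were available for 39 starts of 32 genes of the segment, 7 of them in the stretch of dense peaks described below. The same 300 bases stood at 4 starts, those of Gm40367, Gm36327, Gm40364 and the second of Gm40369, and at no other of 32851 windows in the table. The starts of these windows were 8600, 12990 and 4325 bp apart, near 2, 3 and 1 times the shortest distance. This would make a repeated unit of 4300 to 4330 bp, but the sequence between the windows was not examined. The window of Gm52861, further along the chromosome, matched 297 of the 300 bases, with C50T and C216A and 1 missing base, positions being counted from 1 at the 5′ end of the shared window. All windows are on the plus strand and printed 5′ to 3′, the first as it stands at Gm40367, chr6:47662342-47662641, and the second at chr6:47738587-47738886 with the substituted bases in capitals.
Shared window of 4 starts: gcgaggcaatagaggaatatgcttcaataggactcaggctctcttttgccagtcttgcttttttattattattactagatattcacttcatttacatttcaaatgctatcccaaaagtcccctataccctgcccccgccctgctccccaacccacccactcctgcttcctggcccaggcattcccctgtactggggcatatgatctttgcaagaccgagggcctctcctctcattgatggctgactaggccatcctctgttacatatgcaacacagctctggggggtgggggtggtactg
Gm52861: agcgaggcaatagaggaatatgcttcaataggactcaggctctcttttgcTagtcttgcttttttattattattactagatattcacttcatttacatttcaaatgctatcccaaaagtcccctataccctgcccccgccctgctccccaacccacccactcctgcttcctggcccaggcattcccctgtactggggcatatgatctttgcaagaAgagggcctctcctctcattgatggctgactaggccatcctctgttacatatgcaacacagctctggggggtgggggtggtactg

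The first start of Gm40369 and the start of Gm52862 lie at separate places in the dense stretch. They shared a run of 45 aligned bases, of which 44 were identical, and this run is in capitals below. The windows are chr6:47652651-47652950 and chr6:47755016-47755315, plus strand, and are shown because the Gm40369 one was the only window of the dense stretch with a peak in every library.
Gm40369, first start: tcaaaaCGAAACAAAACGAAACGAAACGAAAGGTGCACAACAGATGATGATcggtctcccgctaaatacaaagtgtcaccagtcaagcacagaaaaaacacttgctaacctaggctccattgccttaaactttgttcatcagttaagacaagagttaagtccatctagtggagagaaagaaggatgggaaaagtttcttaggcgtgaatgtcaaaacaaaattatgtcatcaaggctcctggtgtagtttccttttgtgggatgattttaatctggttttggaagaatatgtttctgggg
Gm52862: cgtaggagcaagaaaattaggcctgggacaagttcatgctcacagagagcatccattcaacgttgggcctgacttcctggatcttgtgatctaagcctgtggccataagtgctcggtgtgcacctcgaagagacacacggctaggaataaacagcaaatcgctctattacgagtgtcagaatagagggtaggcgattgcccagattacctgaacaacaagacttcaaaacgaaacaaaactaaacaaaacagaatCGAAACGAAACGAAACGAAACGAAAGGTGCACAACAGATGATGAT
Reads inside identical copies cannot be assigned to 1 copy, and the sources used here do not say how the authors treated such reads. Summit heights of the predicted genes therefore belong to the repeat and not safely to 1 gene.

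A list's background was recovered from its values, since the authors' fold enrichment equalled the summit pileup plus 1 over the background plus 1. In fragments it was 1.45 and 1.34 in the Igf2bp2KO lists, 0.736 and 1.21 in the Prmt6KO lists, and 1.46 and 1.44 in the WT lists, which is the only measure of depth they carry. The lists also reached down to different heights, to summits of 8 and 7 fragments in Igf2bp2KO, 2 and 3 in Prmt6KO and 4 and 4 in WT, and held 1028 and 1261, 814517 and 431638, and 165304 and 134492 peaks in that order of genotypes. Peak numbers are therefore compared within a list, and heights are given in fragments or in multiples of the list's own background. On the sex chromosomes WT replicate 1 was unlike the rest, with 1.23% of its peaks on X and 1.35% on Y, against 7.68% and 0.0297% in WT replicate 2 and 4.77% to 7.82% and 0.0530% to 0.159% in the KO libraries. The targeted genes could not check the labels, since peaks are not transcripts and 0.328% of 21631 protein-coding genes held a peak in both Igf2bp2KO libraries: Igf2bp2 held 0 and 0 peaks in Igf2bp2KO against 4 and 3 in WT, and Prmt6 held 4 and 0 in Prmt6KO against 1 and 0 in WT. Peak lists also hold no marker transcripts against which the labelled tissue could be checked.

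The segment held 35 and 32 peaks in the Igf2bp2KO libraries, 523 and 281 in the Prmt6KO libraries, and 133 and 121 in the WT libraries. Per Mb this was 23.3 and 21.3 in Igf2bp2KO, where the flanks held 0.05 and 0.15. The same densities were 349 and 187 in the Prmt6KO segment against 324 and 173 in its flanks, and 88.7 and 80.7 in the WT segment against 66.5 and 52.2 in its flanks. The segment was thus denser than its flanks in all 6 libraries, by a ratio of 467 and 142 in Igf2bp2KO, 1.08 and 1.08 in Prmt6KO, and 1.33 and 1.55 in WT. On the log2 scale the ratio averaged 8.01 ± 1.21 in Igf2bp2KO, 0.11 ± 0.0043 in Prmt6KO and 0.52 ± 0.15 in WT (SD, n = 2 each). The Igf2bp2KO ratios rest on 1 and 3 peaks in 20 Mb of flanks, and the lists with lower lowest summits had more peaks in their flanks. The mean difference from WT was 7.49 in Igf2bp2KO and -0.41 in Prmt6KO, and 7.38 and -0.52 without WT replicate 1.

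**Figure D1:**
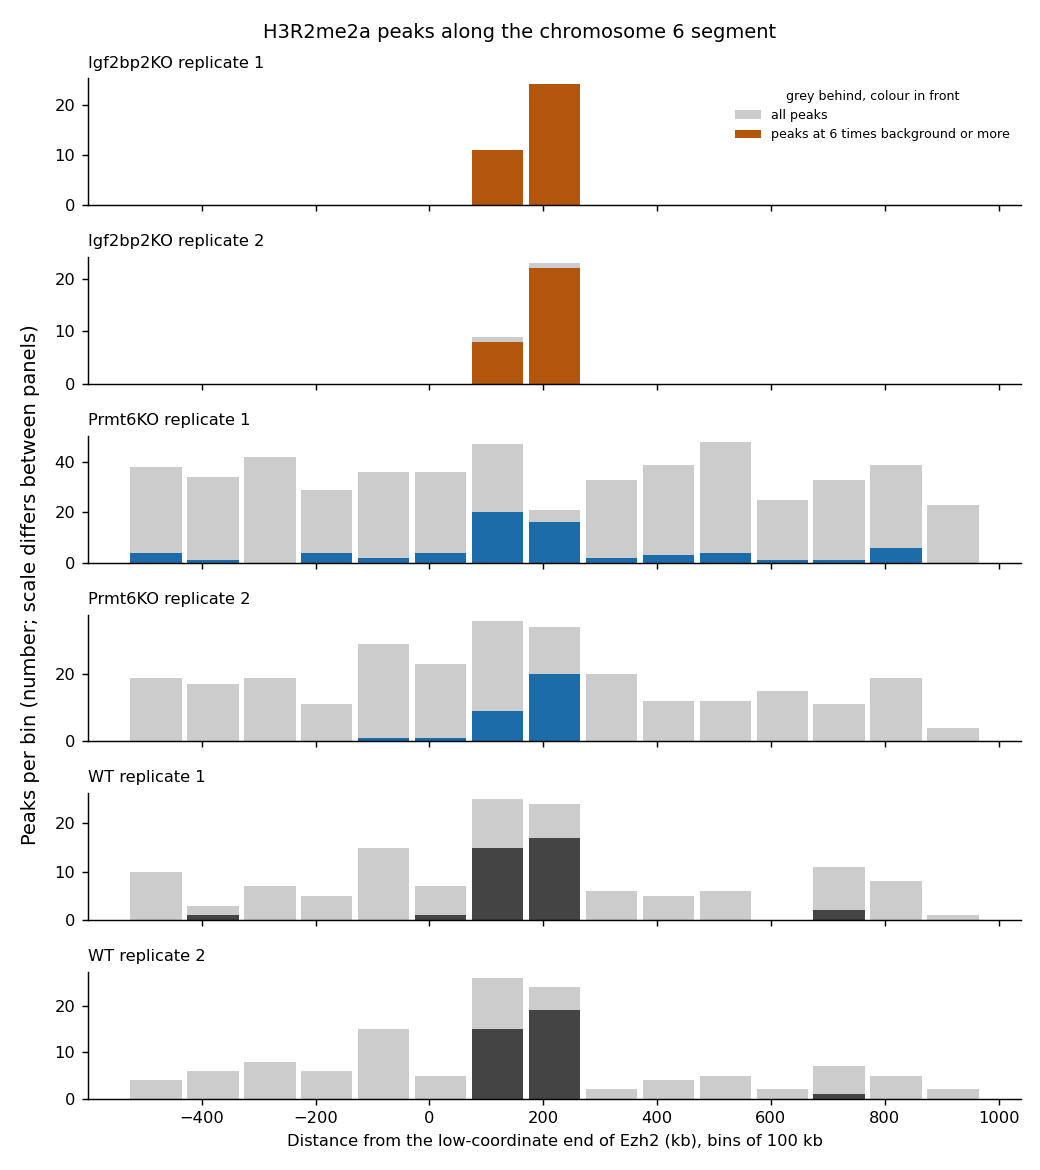
Peaks per 100 kb bin along the segment in each library, all peaks in grey and peaks at 6 times the own background or more in colour, against the distance from the low-coordinate end of Ezh2 in kb; the vertical scale differs between panels. The Igf2bp2KO peaks fill 2 neighbouring bins past Ezh2, which also hold most of the coloured peaks of WT and many of those of Prmt6KO.

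The crowding came from a small stretch between Ezh2 and Pdia4. When overlapping peaks of the 6 lists were merged, the segment held 792 regions, of which 679 were listed in a single library and 15 in all 6. The regions listed in at least 5 libraries, a limit set after the values were seen, spanned chr6:47651663-47778308, which is 126646 bp or 8.44% of the segment and is called the core here. A region at chr6:47740368-47741028 just missed that limit, with 0 and 0 fragments in Igf2bp2KO, 6 and 6 in Prmt6KO, and 8 and 6 in WT. The core held 35 and 32 peaks in Igf2bp2KO, 47 and 55 in Prmt6KO, and 43 and 48 in WT. These were 100% and 100% of the Igf2bp2KO members, 8.99% and 19.6% of the Prmt6KO members, and 32.3% and 39.7% of the WT members. The Igf2bp2KO counts were the lowest, but they come from the shortest lists, whose lowest summits of 8 and 7 fragments were the highest. Core counts are therefore not compared between genotypes. The core was bounded by regions present in most libraries, so peaks of every library in it are in part built in.

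Outside the core the segment looked like its flanks. It held 0 and 0 peaks there in Igf2bp2KO, 476 and 226 in Prmt6KO, and 90 and 73 in WT. Per Mb the remainder of the segment had 1.07 and 0.950 times the flank density in Prmt6KO, and 0.986 and 1.02 times in WT. Bases under a peak showed the same division. In the core, peaks covered 12.0% and 9.27% of the bases in Igf2bp2KO, 44.9% and 40.3% in Prmt6KO, and 41.6% and 33.4% in WT. In the remainder of the segment they covered none in Igf2bp2KO, 9.54% and 4.37% in Prmt6KO, and 1.82% and 1.41% in WT, beside 9.01% and 4.74% in the Prmt6KO flanks and 1.74% and 1.39% in the WT flanks.

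**Figure D2:**
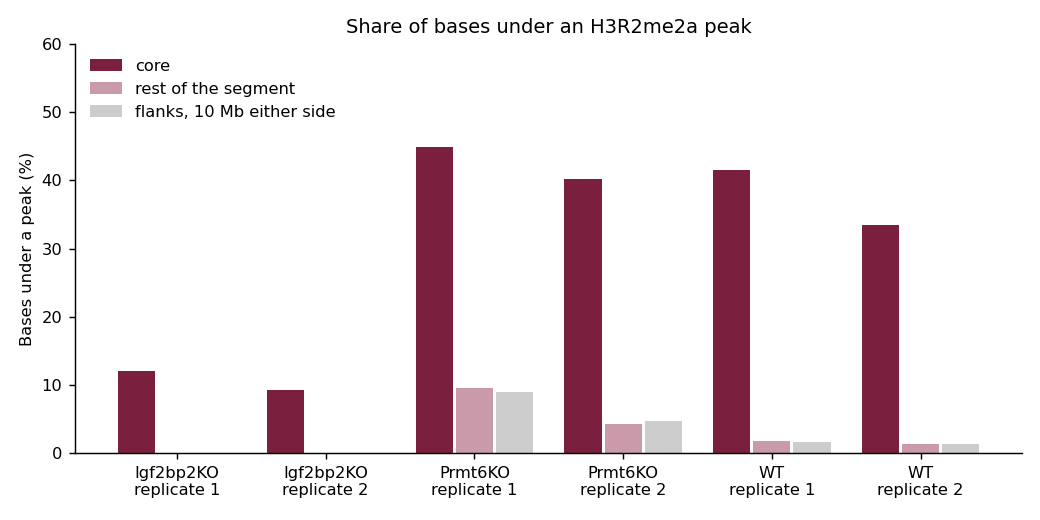
Percent of bases under a peak in the core, in the rest of the segment and in the flanks (bars), for each of the 6 libraries. The core bars stand at 9.27% to 12.0% in Igf2bp2KO, 40.3% to 44.9% in Prmt6KO and 33.4% to 41.6% in WT, and in every library exceed the bars of the rest and the flanks, which are too low to see in Igf2bp2KO.

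Peaks of the core were also wider than the peaks around it in Prmt6KO and WT. Their median width was 350 and 280 bp in Igf2bp2KO, 597 and 796 bp in Prmt6KO, and 768 and 656 bp in WT. The widest measured 1036 and 1375 bp in Igf2bp2KO, 7231 and 2988 bp in Prmt6KO, and 3702 and 4696 bp in WT. In the remainder of the segment the median was 207 and 209 bp in Prmt6KO and 237.5 and 211 bp in WT, so the median peak of both genotypes was wider in the core. The narrower Igf2bp2KO peaks moved with the higher lowest summit of those lists, and the part this played was not tested.

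A peak is called high here when its summit reached 6 times the background of its own list, which is 9 and 9 fragments in Igf2bp2KO, 5 and 8 in Prmt6KO, and 9 and 9 in WT. High peaks of the core numbered 35 and 30 in Igf2bp2KO, 35 and 29 in Prmt6KO, and 32 and 34 in WT. The Igf2bp2KO and WT libraries share the limit of 9 fragments, and their counts overlapped. WT peaks of the core were wider, and 1 of them can span several Igf2bp2KO peaks, so similar counts do not mean similar coverage. The whole segment held 35 and 30 high peaks in Igf2bp2KO, or 100% and 93.8% of its peaks, beside 99.5% and 90.7% of all peaks of those lists, so that share shows nothing about the segment. In Prmt6KO 68 and 31 peaks of the segment were high, 13.0% and 11.0% of its members against 7.29% and 1.34% of all peaks. In WT 36 and 35 were high, 27.1% and 28.9% against 3.05% and 2.03%. The 95% Wilson intervals of these WT shares were 20.2% to 35.2% and 21.6% to 37.6%, and those of the Prmt6KO shares 10.4% to 16.2% and 7.88% to 15.2%, all of counting error only.

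Outside the core the segment held 0 and 0 high peaks in Igf2bp2KO, which had no peaks there. High were 33 of 476 and 2 of 226 peaks in Prmt6KO, beside 7.29% and 1.34% of all peaks of those lists. In WT 4 of 90 and 1 of 73 were high, beside 3.05% and 2.03%. These counts were near the shares of the whole lists. The 33 of Prmt6KO replicate 1 go with its limit of just 5 fragments. The segment held 3.66% and 2.71% of all high peaks of the Igf2bp2KO libraries, 0.115% and 0.536% of those of Prmt6KO, and 0.726% and 1.29% of those of WT. These shares averaged 3.18% ± 0.674 in Igf2bp2KO, 0.325% ± 0.298 in Prmt6KO and 1.01% ± 0.396 in WT (SD, n = 2 each). The mean difference from WT was 2.18 percentage points in Igf2bp2KO and -0.681 in Prmt6KO, and 1.90 and -0.960 without WT replicate 1. The order of Igf2bp2KO and WT turned round with the limit: at 8 times the background the shares were 3.78% and 2.13% in Igf2bp2KO against 3.17% and 4.59% in WT. With the authors' q-value of 0.05 or below as the limit, the core held 1 and 1 peaks in Igf2bp2KO, 24 and 29 in Prmt6KO, and 32 and 34 in WT. Whole lists held 105 and 93, 4034 and 5784, and 4957 and 2722 such peaks in that order. The segment held 0.952% and 1.08% of them in Igf2bp2KO, 0.645% and 0.536% in Prmt6KO, and 0.726% and 1.29% in WT. These q-values are not on 1 scale: a summit of 17 fragments had 0.860 in Igf2bp2KO replicate 1 and 4.6e-10 in WT replicate 1.

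The core itself fell into 2 blocks with an empty stretch between them. The left block, chr6:47651663-47687065, spans 35403 bp and the right block, chr6:47737104-47778308, spans 41205 bp. The 50038 bp between them, chr6:47687066-47737103, held no peak in any of the 6 lists, not even in the Prmt6KO lists, which otherwise averaged 324 and 173 peaks per Mb of flank. Peaks covered 13.7% and 7.85% of the left block in Igf2bp2KO, 74.6% and 64.8% in Prmt6KO, and 69.2% and 54.2% in WT. They covered 25.3% and 21.7% of the right block in Igf2bp2KO, 73.9% and 68.1% in Prmt6KO, and 68.3% and 56.2% in WT. The right block was thus covered more than the left in both Igf2bp2KO libraries, while the blocks lay within 4 percentage points of each other in every Prmt6KO and WT library. Whether the assembly has resolved sequence in the empty stretch was not analysed here.

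**Figure D3:**
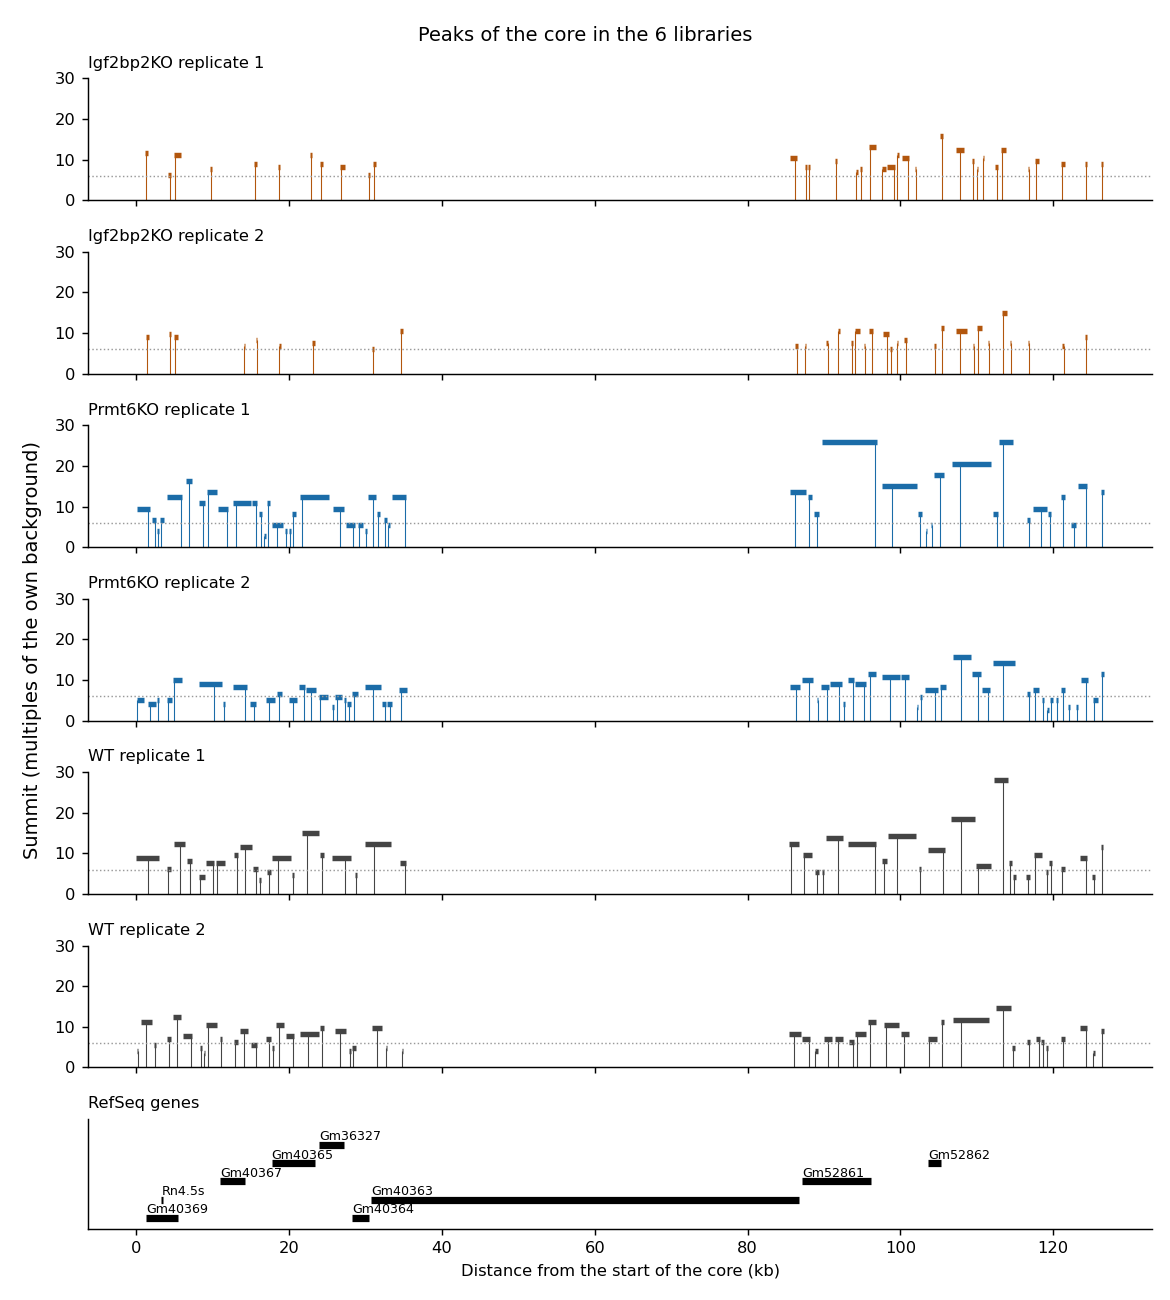
Peaks of the core in each library (bars give width in kb from the start of the core, vertical lines the height of the summit in multiples of the own background), with the RefSeq genes below; the dotted line marks 6 times the background. Peaks stand in 2 blocks on either side of a peakless 50038 bp in all 6 libraries, with fewer bases covered in Igf2bp2KO. The highest peaks, at 25.8 and 28.1 times the background, are in the right block.

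The height of a merged region is the highest summit of each library anywhere in it, so the summits compared can lie at different positions. The highest region by mean over the 6 libraries was chr6:47763710-47766725, in the right block. Its summit held 18 and 20 fragments in Igf2bp2KO, 19 and 17 in Prmt6KO, and 41 and 21 in WT. In multiples of the background these were 12.4 and 15.0 in Igf2bp2KO, 25.8 and 14.1 in Prmt6KO, and 28.1 and 14.6 in WT. In fragments both WT values were above those of both KO genotypes, with replicate 1 far above the others. In multiples the 3 genotypes overlapped, and Prmt6KO replicate 1 and WT replicate 1 were both high. Counting error alone gives the 41 fragments an exact Poisson interval of 29.4 to 55.6 (95%) and the 21 fragments one of 13.0 to 32.1.

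The neighbouring regions of the right block followed. At chr6:47758307-47763560 the summit held 18 and 15 fragments in Igf2bp2KO, 15 and 19 in Prmt6KO, and 27 and 17 in WT. At chr6:47741324-47748648, the longest region with 7325 bp, which overlaps the lncRNA Gm52861, it held 19 and 14 in Igf2bp2KO, 19 and 14 in Prmt6KO, and 20 and 16 in WT. Both genotypes overlapped WT at these regions. In the longest, the summit stood at 47743522 in WT replicate 1 and at 47748299 in Prmt6KO replicate 1, so these are not heights at 1 site. At chr6:47754927-47757571, which holds the lncRNA Gm52862, it held 23 and 15 in Igf2bp2KO, 13 and 10 in Prmt6KO, and 16 and 16 in WT. At chr6:47749207-47753972 it held 16 and 13 in Igf2bp2KO, 11 and 13 in Prmt6KO, and 21 and 15 in WT. The 23 fragments at Gm52862 were the highest summit of Igf2bp2KO replicate 1 in the segment. The last right-block regions among the 10 highest were chr6:47774938-47776267, with 13 and 12 fragments in Igf2bp2KO, 11 and 12 in Prmt6KO, and 13 and 14 in WT, and chr6:47737104-47740222, with 15 and 9, 10 and 12, and 18 and 12 in that order of genotypes.

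Of the left block 3 regions were among the 10 highest. At chr6:47655625-47658974 the summit held 16 and 13 fragments in Igf2bp2KO, 12 and 12 in Prmt6KO, and 18 and 18 in WT. At chr6:47672998-47676812 it held 16 and 10 in Igf2bp2KO, 9 and 10 in Prmt6KO, and 22 and 14 in WT. At chr6:47681538-47687065 it held 13 and 14 in Igf2bp2KO, 9 and 10 in Prmt6KO, and 18 and 14 in WT. The Prmt6KO fragments were the lowest at all 3, with 1 tie with Igf2bp2KO at the middle one, and the background of both Prmt6KO lists was the lowest too. The 8 regions of this block that were listed in at least 5 libraries followed each other at start-to-start distances of 3962 to 4461 bp. This is near the 4300 to 4330 bp of the inferred unit. Regions of the block listed in fewer libraries were left out of these distances.

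Over the 15 regions listed in all 6 libraries, the lowest, median and highest summits were 11, 16 and 23 fragments and 9, 12 and 20 fragments in the Igf2bp2KO libraries. They were 5, 10 and 19 and 6, 10 and 19 in the Prmt6KO libraries, and 6, 18 and 41 and 9, 15 and 21 in the WT libraries. In multiples of the background the mean log2 height was 3.39 and 3.18 in Igf2bp2KO, 3.81 and 3.17 in Prmt6KO, and 3.50 and 3.32 in WT. One Igf2bp2KO library thus lay between the WT libraries, and the Prmt6KO libraries lay on either side of them. The mean difference from WT was -0.13 in Igf2bp2KO and 0.08 in Prmt6KO. The value of Prmt6KO turned to -0.24 without its replicate 1 and to -0.01 without WT replicate 2, so it has no settled sign, and without WT replicate 1 the differences were -0.03 in Igf2bp2KO and 0.17 in Prmt6KO. Regions had to be listed in every library to enter, so these heights say nothing of regions lost from a list. They also compare the highest summit of each library in a region, not the height at 1 shared position.

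Region by region few groups stood apart. Both Igf2bp2KO summits were above both WT summits, in multiples of the background, at 2 of the 15 regions and below them at 3, beside 29.8% above and 7.76% below among 322 such regions of chromosomes 1 to 19 and X. Both Prmt6KO summits were above both WT summits at 3 and below them at 0, beside 41.9% and 3.73%. The same log2 height over the 322 regions was 3.63 and 3.59 in Igf2bp2KO, 3.88 and 3.64 in Prmt6KO, and 3.52 and 3.27 in WT. The regions of the segment where both KO values exceeded WT in Prmt6KO were the last of the right block, among them chr6:47768141-47768667, with 5 and 8 fragments in Prmt6KO against 6 and 9 in WT, whose backgrounds were 0.736 and 1.21 in Prmt6KO and 1.46 and 1.44 in WT.

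**Figure D4:**
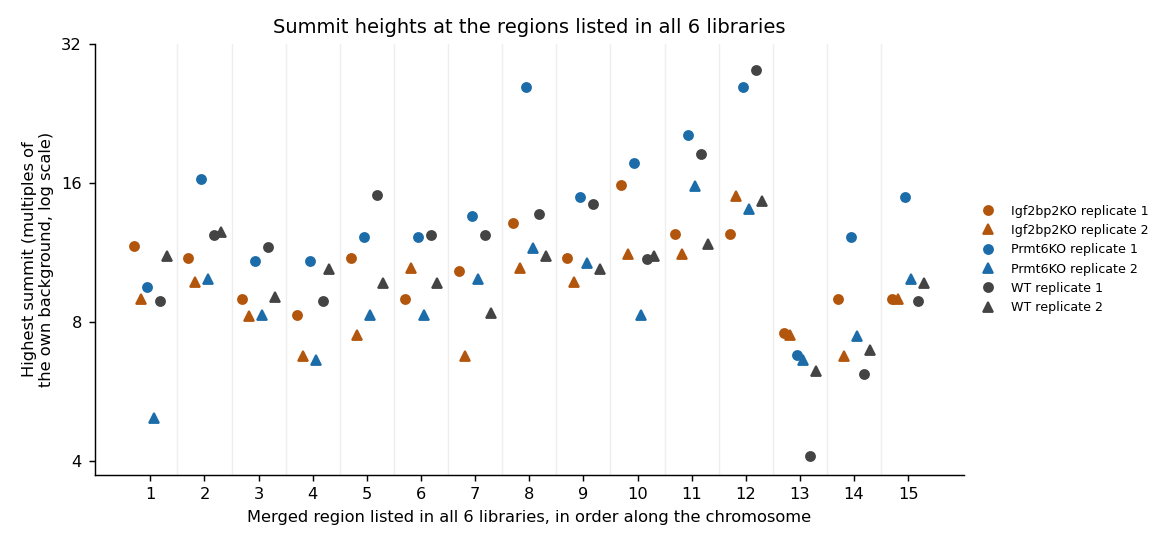
Highest summit of each library anywhere in a region listed in all 6 libraries, in multiples of the own background on a log scale. The 15 regions are in order along the chromosome, and colours mark the genotype and shapes the replicate. The genotypes overlap at most regions, and the points above 24 belong to Prmt6KO replicate 1 and WT replicate 1.

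Peaks of the core came back in the other replicate more often than peaks of the whole lists. In Igf2bp2KO 62.9% and 68.75% of core peaks overlapped a peak of the other replicate, beside 56.2% and 43.7% over chromosomes 1 to 19 and X. In Prmt6KO 85.1% and 92.7% did, beside 11.5% and 21.6%, and in WT 93.0% and 100% did, beside 6.06% and 7.34%. Outside the core 43 of 476 and 43 of 226 did in Prmt6KO, and 6 of 90 and 6 of 73 in WT, near the shares of the whole lists. The core was set by presence in 5 or more libraries, so its high share is in part built in.

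WT replicate 1 peaks that overlapped a WT replicate 2 peak numbered 46 in the segment, 40 of them in the core. Of the 46, Igf2bp2KO libraries held 25 and 23, or 54.3% and 50%, beside 6.19% and 7.07% of 9852 such WT peaks of chromosomes 1 to 19 and X. Prmt6KO libraries held 39 and 41, or 84.8% and 89.1%, beside 39.5% and 38.6%. The Wilson intervals were 40.2% to 67.8% and 36.1% to 63.9% in Igf2bp2KO, and 71.8% to 92.4% and 77.0% to 95.3% in Prmt6KO. They cover counting error only and treat the 46 as independent, although 40 lie in the core with its repeat. All Igf2bp2KO overlaps were in the core, since the Igf2bp2KO lists held no peak elsewhere in the segment. Of the 6 replicated WT peaks outside the core, Prmt6KO held 0 and 2. Igf2bp2KO held 0 and 0 of them, which its lack of peaks there had fixed beforehand. The core was bounded by regions present in most libraries, so the overlaps of both KO genotypes in it are in part built in. With high peaks alone in all lists, 28 replicated WT peaks remained, of which Igf2bp2KO held 82.1% and 67.9%, and Prmt6KO 96.4% and 82.1%. The same share of high peaks over chromosomes 1 to 19 and X was not counted. These values therefore cannot be set against the shares of all peaks given above. The Igf2bp2KO lists also had the highest lowest summits, and the part of this in the lower share was not tested.

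The 6 predicted protein-coding genes of the segment all lie in the core. They are Gm40369, Gm40367, Gm40365, Gm36327, Gm40364 and Gm40363, and no function is annotated for them in the sources used here. Each had a peak within 1 kb of a gene end in both libraries of all 3 genotypes. This held for 0.208% of 21631 protein-coding genes in Igf2bp2KO, 29.0% in Prmt6KO and 3.56% in WT. In Igf2bp2KO the 6 were 13.3% of the 45 genes so called. A high peak inside the gene in both libraries was found for 3 of the 6 in Igf2bp2KO, 5 in Prmt6KO and 5 in WT, beside 0.319%, 4.72% and 1.15% of all genes in that order of genotypes. Identical start windows stand at 4 of them, so they are not independent examples.

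Gm40369 (chr6:47652901-47657148) held 3 and 3 peaks in Igf2bp2KO with summits up to 17 and 13 fragments, 5 and 4 in Prmt6KO with up to 9 and 12, and 3 and 4 in WT with up to 18 and 18. Gm40367 (chr6:47662592-47665812) held 0 and 1 peaks in Igf2bp2KO, 2 and 3 in Prmt6KO, and 3 and 3 in WT, with summits up to 0 and 9, 8 and 11, and 17 and 13 fragments in that order. Gm40365 (chr6:47669367-47675070) held 2 and 2 in Igf2bp2KO, 5 and 5 in Prmt6KO, and 3 and 4 in WT, with summits up to 16 and 10, 9 and 10, and 22 and 15 fragments. In Gm40369 and Gm40367 both WT summits were the highest in fragments, and in Gm40365 the WT and Igf2bp2KO values overlapped. Gm36327 (chr6:47675582-47678797) held 2 and 0 peaks in Igf2bp2KO, 2 and 3 in Prmt6KO, and 2 and 2 in WT, with summits up to 13 and 0, 9 and 7, and 14 and 14 fragments. Gm40364 (chr6:47679907-47682091) held 1 and 0 peaks in Igf2bp2KO, 4 and 2 in Prmt6KO, and 2 and 1 in WT, with summits up to 9 and 0, 9 and 10, and 18 and 7 fragments. Igf2bp2KO replicate 2 thus had no peak inside either of these genes.

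Gm40363 (chr6:47682344-47738326) runs across the empty stretch, and its peaks stood at its ends. It held 2 and 3 peaks in Igf2bp2KO with summits up to 15 and 14 fragments, 6 and 5 in Prmt6KO with up to 10 and 10, and 3 and 4 in WT with up to 18 and 14. The lncRNA Gm52861 (chr6:47738837-47747801) held 6 and 7 peaks in Igf2bp2KO, 4 and 8 in Prmt6KO, and 5 and 7 in WT, with summits up to 19 and 14, 19 and 14, and 20 and 16 fragments. The lncRNA Gm52862 (chr6:47755266-47757004) held 1 and 2 in Igf2bp2KO, 2 and 2 in Prmt6KO, and 1 and 2 in WT, with summits up to 23 and 15, 13 and 10, and 16 and 16 fragments. Both lncRNA genes had a high peak in both libraries of every genotype, and at Gm52861 the genotypes overlapped closely.

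The libraries differed in which gene starts lay under a peak. The heights below are those of the whole overlapping peak, whose summit lay outside the window in every case but Gm52862 in Prmt6KO replicate 1, and 1 wide peak can cover several windows. In the core 1 and 1 of the 7 RefSeq windows overlapped a peak in Igf2bp2KO, 7 and 7 in Prmt6KO, and 7 and 7 in WT. The Igf2bp2KO lists began at 8 and 7 fragments and covered 12.0% and 9.27% of the core, against 33.4% to 44.9% in the other libraries. The part this played was not tested, and the share of all 32851 windows under a peak was not counted. Of the 7 windows 4 are identical and Gm52861 is a near copy, so they are not independent. The single Igf2bp2KO window was the first start of Gm40369, where the overlapping peak reached 17 and 12 fragments, beside 7 and 6 in Prmt6KO and 13 and 16 in WT. The peak over the identical window of Gm36327 reached 9 and 7 fragments in Prmt6KO and 22 and 12 in WT, and no Igf2bp2KO peak was listed there. The identical windows of Gm40369, Gm40367 and Gm40364 also lay under a Prmt6KO and a WT peak in every library, with 5 and 5, 7 and 11, and 4 and 8 fragments in Prmt6KO, against 13 and 8, 11 and 10, and 13 and 7 in WT. At Gm52861, the near copy, the peak held 10 and 12 fragments in Prmt6KO against 14 and 12 in WT. Of the 32 windows outside the core, 0 and 0 lay under a peak in Igf2bp2KO, 3 and 1 in Prmt6KO, and 0 and 0 in WT.

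Peaks of the left block were also read by their position in the repeated unit. The 6 units between the first and the last identical window, 4319 bp each on average, were laid over each other. Between identical windows more than 1 unit apart, the bounds of units were set by equal division, not by sequence. The number of units under a peak was counted at each position. In the 0.5 kb that begin 3.0 kb into the unit, peaks covered 45.8% and 19.4% of the bases in Igf2bp2KO, 100% and 84.7% in Prmt6KO, and 100% and 91.7% in WT. In the 0.5 kb that begin 1.5 kb into the unit, they covered 0% and 0% in Igf2bp2KO, 16.7% and 13.6% in Prmt6KO, and 7.58% and 1.52% in WT. Between 1.49 and 1.79 kb at most 1 unit of 6 was covered in any library. The best covered part differed: in Prmt6KO replicate 2 it was the 0.5 kb from 2.0 kb on, with 95.8%, and the end of the unit from 4.0 kb on was covered at 0% and 0% in Igf2bp2KO, 69.0% and 57.1% in Prmt6KO, and 100% and 66.7% in WT. Igf2bp2KO peaks covered no unit at 58% and 64% of positions, against 4% and 5% in Prmt6KO and 15% and 15% in WT. Summits inside the units numbered 8 and 6 in Igf2bp2KO, 19 and 17 in Prmt6KO, and 16 and 19 in WT.

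Rn4.5s is annotated once, at chr6:47654921-47655094, 1.18 kb into the first unit. No peak overlapped it in Igf2bp2KO or WT, and 1 and 0 did in Prmt6KO, with a summit of 5 fragments. At its position at most 0 and 0 of the 6 units were covered in Igf2bp2KO, 5 and 2 in Prmt6KO, and 2 and 1 in WT. Peaks within 1 kb of the gene reached 9 and 13 fragments in Igf2bp2KO, 9 and 6 in Prmt6KO, and 13 and 10 in WT. The annotated copy of the small RNA gene thus lay between peaks in WT and Igf2bp2KO. At the same position of the 6 units, Igf2bp2KO peaks covered none, while WT peaks covered up to 2 and 1.

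**Figure D5:**
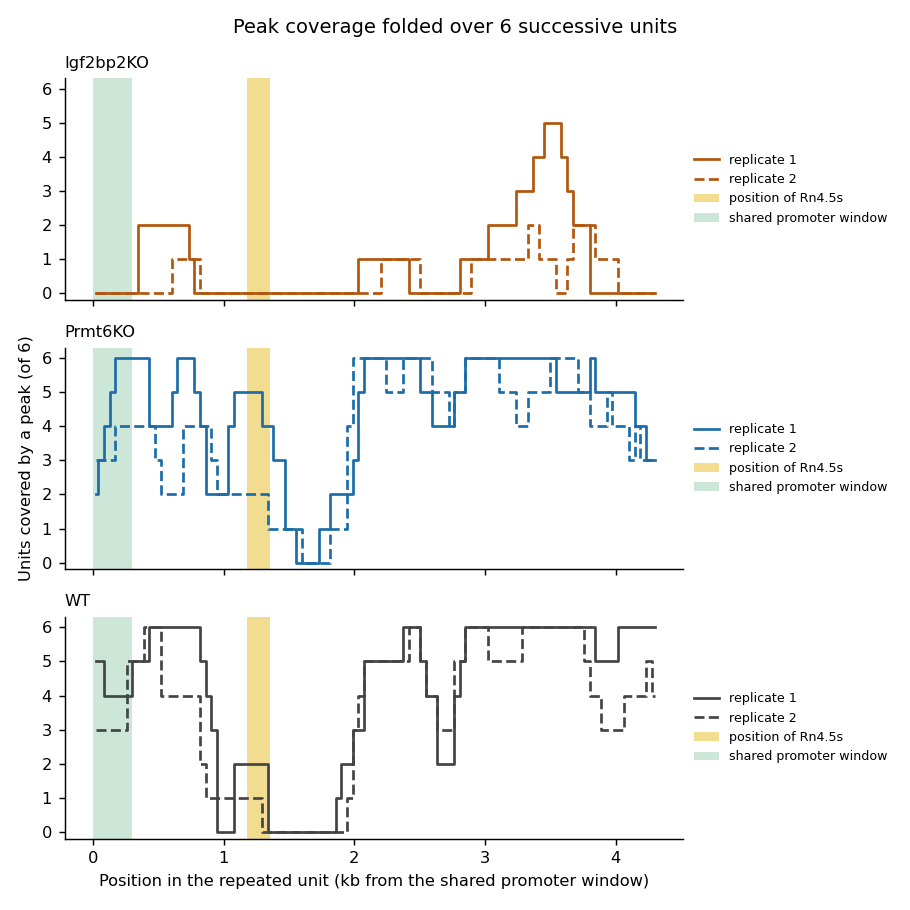
Number of the 6 inferred units covered by a peak at each position, in kb from the start of the shared promoter window. Each genotype has its panel (solid line replicate 1, dashed line replicate 2), with the shared window and the position of Rn4.5s shaded. All Prmt6KO and WT libraries reach 6 of 6 units, Igf2bp2KO reaches 5 and 2, and every library has a trough between 1.49 and 1.79 kb.

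Ezh2 itself (chr6:47530274-47595270), next to the core, held 0 and 0 peaks in Igf2bp2KO, 22 and 16 in Prmt6KO, and 6 and 4 in WT. The highest summits were 5 and 8 fragments in Prmt6KO against 9 and 6 in WT, and 2 and 1 of the Prmt6KO peaks and 1 and 0 of the WT peaks were high. Per 10 kb of gene this was 3.38 and 2.46 peaks in Prmt6KO and 0.923 and 0.615 in WT, with lower summits than in the core. The flanks of the segment held 324 and 173 peaks per Mb in Prmt6KO and 66.5 and 52.2 in WT. A peak in both libraries was listed for 67.3% of protein-coding genes in Prmt6KO and 36.6% in WT. High peaks in both Prmt6KO libraries, as at Ezh2, were listed for 4.72%. A peak within 1 kb of a gene end was found in both Prmt6KO libraries, with summits of 2 and 5 fragments, and in neither WT library. Such a peak was listed for 29.0% of genes in Prmt6KO and 3.56% in WT.

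Of 13 genes of polycomb repressive complex 2 and its partners, 0 had a peak in both Igf2bp2KO libraries, 10 in both Prmt6KO libraries and 8 in both WT libraries. Over 21631 protein-coding genes, 0.328%, 67.3% and 36.6% did in that order of genotypes. High peaks in both libraries were found for 3 in Prmt6KO, Ezh2, Suz12 and Jarid2, which encode the catalytic subunit, a core scaffold subunit and a partner that brings the complex to chromatin, and for 0 in Igf2bp2KO and in WT, beside 4.72% of all genes in Prmt6KO, 0.319% in Igf2bp2KO and 1.15% in WT. The other members, with Eed, the reader of methylated lysine 27, had no high peak in both libraries of a genotype.

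Cul1 (chr6:47453732-47526144) held 0 and 0 peaks in Igf2bp2KO, 28 and 22 in Prmt6KO, and 11 and 13 in WT, with summits of at most 8 and 7 fragments in Prmt6KO against 7 and 7 in WT. Of its peaks 3 and 0 were high in Prmt6KO and 0 and 0 in WT. Of 9 measured SCF genes, 0 had a peak in both Igf2bp2KO libraries, 9 in both Prmt6KO libraries and 7 in both WT libraries, beside 0.328%, 67.3% and 36.6% of all genes in that order of genotypes. Only Fbxw7, a substrate receptor of the ligase, had high peaks in both Prmt6KO libraries, as 4.72% of all genes did. Pdia4 (chr6:47796141-47813512), on the other side of the core, held 0 and 0 peaks in Igf2bp2KO, 7 and 2 in Prmt6KO, and 1 and 1 in WT, none of them high. Of 5 protein disulfide isomerase genes, 0 had a peak in both libraries in Igf2bp2KO, 5 in Prmt6KO and 4 in WT, beside the same 0.328%, 67.3% and 36.6%. The part of Cntnap2 in the segment held 0 and 0 peaks in Igf2bp2KO, 115 and 55 in Prmt6KO, and 20 and 18 in WT, with summits of at most 6 and 6 fragments in Prmt6KO against 9 and 8 in WT. No summit in these neighbours passed 9 fragments.

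The zinc finger genes carried scattered low peaks. Of 9 coding genes, 8 with a Zfp symbol and Krba1, which is named for a KRAB domain, 0 had a peak in both Igf2bp2KO libraries, 7 in both Prmt6KO libraries and 3 in both WT libraries, and 0 had a high peak in both libraries of any genotype. Zfp398 held 0 and 0 peaks in Igf2bp2KO, 11 and 9 in Prmt6KO, and 3 and 1 in WT, with summits of at most 5 and 7 fragments in Prmt6KO against 7 and 5 in WT. Zfp282 held 0 and 0 in Igf2bp2KO, 12 and 7 in Prmt6KO, and 0 and 1 in WT. Zfp786 held 0 and 0 in Igf2bp2KO, 7 and 4 in Prmt6KO, and 2 and 0 in WT, and Zfp212 held 0 and 0, 7 and 2, and 1 and 0 in the same order. Zfp467, at the far end, held 0 and 0, 4 and 0, and 1 and 1. With 67.3% of all genes called in Prmt6KO and 36.6% in WT, these counts were near the background.

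The segment also holds a cluster of tRNA genes, between Zfp746 and Krba1. RefSeq lists 49 genes in the segment with names of the n-TCgca type, cysteine tRNA genes, and 48 of them form this array, from 48133937 to 48363603, inside the lncRNA Gm16630. A peak overlapped 0 and 0 of the 49 in Igf2bp2KO, 5 and 0 in Prmt6KO, and 0 and 0 in WT. Across the array 0 and 0 peaks were listed in Igf2bp2KO, 73 and 30 in Prmt6KO, and 14 and 13 in WT, with summits of at most 7 and 7 fragments in Prmt6KO against 9 and 9 in WT. Gm16630 (chr6:48130906-48395408) as a whole held 0 and 0 peaks in Igf2bp2KO, 86 and 40 in Prmt6KO, and 18 and 14 in WT, of which 7 and 0 were high in Prmt6KO and 2 and 1 in WT. The lncRNA Gm38802 inside it (chr6:48222182-48247389) held 0 and 0, 10 and 5, and 4 and 4 peaks in that order of genotypes, with 1 and 1 high in WT. Per Mb of array this was 318 and 131 peaks in Prmt6KO, against 324 and 173 in its flanks, and 61.0 and 56.6 in WT, against 66.5 and 52.2. The tRNA array thus had no crowding of peaks like that of the core.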

How the data were processed

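H3R2me2a peak lists of 6 libraries were used, 2 per genotype, grouped by their titles, and 3 inputs were not analysed here. The submitters' processing notes list MACS2 2.1.0 and bedtools, HISAT2, Trim Galore, bcl2fastq 2.17 and the build mm10, without settings. Each deposited list covers 1 library and gives, per the file headers, the fold enrichment (a ratio), the -log10 p-value and -log10 q-value and a score of each peak, and its companion table gives the pileup, a coverage signal. These are the authors' values and were used to describe, rank and filter peaks within a list. The largest p-value in the deposited lists was 0.0387. Read totals are not given in the sources used here.

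Pileups of the deposited Igf2bp2KO tables were scaled, in steps of 0.277 and 0.302, and were divided back to fragments. Peaks were joined to RefSeq genes (GRCm38.p6), merged where they shared 1 bp, and counted, with Python 3.11.15, pandas 2.3.3, numpy 2.4.6, scipy 1.17.1, statsmodels 0.14.6 (Wilson intervals), biopython 1.88 (alignments) and matplotlib 3.10.9. Whole lists were taken over chromosomes 1 to 19 and X. The counting steps were tested on simulated lists. Intervals are 95%, cover counting error only and treat the counted items as independent.

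Members, gene lists and limits were chosen with earlier results of these data known. Named were the genes that define the segment, other genes there with a high peak in both libraries of a genotype, and the 10 highest merged regions, and the rest of the genes named were chosen after their values were seen. Alternatives changed the high-peak limit, the flanks, the overlap, the height measure and the libraries. The limit on summit plus 1 over background plus 1, and the density without the core, were added after seeing the data.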

Additional observations from a re-analysis of the deposited data

How the results depend on the processing

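Of 59 alternative values, 37 stayed within the spread between replicates, 15 moved by more and 7 changed sign. With 2 libraries per genotype, leaving 1 out cannot shift a value beyond that spread. Those values could therefore only stay or change sign, and the count of 37, which includes them, does not measure stability. The Igf2bp2KO minus WT log2 density of 7.49 was 3.70 for high peaks and 5.21 against the rest of chromosomes 1 to 19 and X, and 6.63 to 8.34 with a library left out. Flanks of 5 Mb, or peaks at q of 0.05 or below, gave no Igf2bp2KO value, since the flanks then held 0 peaks. The Prmt6KO minus WT density of -0.41 was -0.70 at that q, -2.10 for high peaks, -1.01 for covered bases and 0.00848 without the core (chosen after seeing the data), and -0.52 to -0.31 with a library left out. The Igf2bp2KO minus WT share of high peaks, 2.18 percentage points, was 0.00779 at that q, 3.03 at 4 times the background, -0.923 at 8 times and -2.30 with 1 added to summit and background (chosen after seeing the data), and 1.70 to 2.66 with a library left out. The Prmt6KO minus WT share, -0.681, was -2.73 at 8 times, -0.0351 at 4 times and -2.45 with 1 added, and -0.960 to -0.401 with a library left out. The Igf2bp2KO minus WT log2 height of -0.13 was -0.93 for the deposited fold enrichment, whose Igf2bp2KO pileups are scaled, and -0.23 to -0.02 with a library left out. The Prmt6KO minus WT height of 0.08 was -0.18 for the deposited fold and -0.10 as a median, and -0.24 to 0.40 with a library left out. The replicated WT peaks found in Igf2bp2KO, 52.2%, were 17.9% when 50% of the WT peak had to be covered, 75.0% for high peaks and 46.3% from WT replicate 2, and 50% to 54.3% with a library left out. For Prmt6KO the 87.0% was 82.1% at 50% overlap, and 84.8% to 89.1% with a library left out. Asking for 50% reciprocal overlap left 0 regions in all libraries and no value. The cause of these shifts was not tested. No paired analysis was possible because the results come from no test and the sources tie no replicate number to an animal, culture or batch. Summits of about 10 fragments limit what these lists can show, and reads in repeats cannot be placed.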
